A study of Mus musculus with 12 samples.

Results

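The active zone scaffold genes described here are Pclo, Bsn, Rims1, Rims2, Rimbp2, Unc13a, Erc1, Erc2, Ppfia3 and Cask. They were taken by gene symbol, and all 10 were found among the 27179 genes of the count table and among the 15298 that passed the filter on low counts. The series holds RNA-seq of mouse cortex, 12 libraries in 3 groups of 4. The KO libraries came from mice with both copies of the mouse progranulin gene removed (Grn-/-), aged 282 to 308 days. The MUT libraries came from mice that lacked mouse Grn in the same way (Grn-/-) and also carried GRNmEx5, a humanized GRN allele with a pathogenic deletion, aged 272 to 309 days. The WT libraries were Grn+/+, with replicate 1 from a mouse of 287 days and replicates 2, 3 and 4 from mice of 375 days. By label 2 KO, 3 MUT and 1 WT libraries were from females, and the 1 WT library labelled female was replicate 1. Loss of mouse Grn is thus shared by KO and MUT, and the labels give neither the promoter nor the copy number of the humanized allele. The labels do not say that each library is a separate animal. A p value here judges a difference between groups against the spread between libraries.

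The active zone is the patch of presynaptic membrane where synaptic vesicles dock and fuse. RIM proteins and RIM-binding proteins hold calcium channels close to docked vesicles, Munc13 proteins prime the vesicles for release, and the ELKS and liprin-alpha proteins help to assemble the site. The very large proteins piccolo and bassoon span the whole scaffold and gather vesicles there, and CASK ties adhesion molecules of the synapse to adaptor proteins inside the terminal.

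Most of these genes are long. The summed exon length per the deposited table ran between 4066 bases for Rims1 and 22065 bases for Pclo, against a median of 2871 bases over the tested genes, and 6 of the 10 lay in the longest decile. In mm10, Pclo lies on chromosome 5 (14514918 to 14863459, plus strand) in 25 exon blocks, and Bsn on chromosome 9 (108096022 to 108190383, minus strand) in 12 exon blocks. Rims1 (chromosome 1, 22288422 to 22805724), Erc1 (chromosome 6, 119570796 to 119848150), Rimbp2 (chromosome 5, 128760401 to 128953362), Unc13a (chromosome 8, 71626712 to 71671757), Ppfia3 (chromosome 7, 45339126 to 45367019) and Cask (chromosome X, 13517080 to 13846541) lie on the minus strand. Rims2 (chromosome 15, 39198286 to 39684372) and Erc2 (chromosome 14, 27622442 to 28478537) lie on the plus strand. Erc2 spans 856 kb of the genome and Ppfia3 27.9 kb.

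RefSeq promoters (GRCm38.p6, 250 bases before the start and 50 after it) were matched for 8 of the 10 genes, and Rims2 and Cask were not matched. The windows of the paralogs Pclo and Bsn and of the paralogs Erc1 and Erc2 are shown because the members of each of these pairs differed in how they compared with WT. Each is written 5′ to 3′ on the gene's own strand, with the letters of a GC box (GGGCGG, read on either strand, so also CCGCCC) in capitals. The windows are chr5:14514668-14514967 for Pclo, chr9:108190334-108190633 for Bsn, chr6:119848101-119848400 for Erc1 and chr14:27622157-27622456 for Erc2.
Pclo: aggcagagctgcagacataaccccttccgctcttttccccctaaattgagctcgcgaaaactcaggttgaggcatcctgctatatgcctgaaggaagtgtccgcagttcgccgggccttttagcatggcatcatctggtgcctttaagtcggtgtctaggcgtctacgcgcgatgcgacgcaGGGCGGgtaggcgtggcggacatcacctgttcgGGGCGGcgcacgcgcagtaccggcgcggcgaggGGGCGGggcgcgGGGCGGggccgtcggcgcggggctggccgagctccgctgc
Bsn: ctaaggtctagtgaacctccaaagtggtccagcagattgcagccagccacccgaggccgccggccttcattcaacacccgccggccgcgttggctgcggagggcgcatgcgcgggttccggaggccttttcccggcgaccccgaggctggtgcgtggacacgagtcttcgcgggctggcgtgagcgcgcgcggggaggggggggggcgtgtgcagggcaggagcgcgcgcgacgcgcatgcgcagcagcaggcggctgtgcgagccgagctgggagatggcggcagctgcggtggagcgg
Erc1: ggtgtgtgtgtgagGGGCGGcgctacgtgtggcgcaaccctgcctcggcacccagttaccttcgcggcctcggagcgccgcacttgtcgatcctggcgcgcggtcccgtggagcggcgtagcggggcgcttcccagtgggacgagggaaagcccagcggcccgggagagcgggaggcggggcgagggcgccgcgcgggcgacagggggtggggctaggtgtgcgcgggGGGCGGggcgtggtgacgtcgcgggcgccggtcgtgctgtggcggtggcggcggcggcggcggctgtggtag
Erc2: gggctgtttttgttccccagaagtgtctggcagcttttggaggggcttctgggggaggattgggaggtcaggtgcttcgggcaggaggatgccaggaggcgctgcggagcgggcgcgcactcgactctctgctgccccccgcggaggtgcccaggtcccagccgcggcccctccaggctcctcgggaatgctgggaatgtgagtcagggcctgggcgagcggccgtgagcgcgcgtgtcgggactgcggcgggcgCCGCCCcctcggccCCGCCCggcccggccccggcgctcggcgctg
Pclo held 4 matches to the GC box, Erc1 and Erc2 held 2 each and Bsn held 0. The letters were present in 6 of the 8 matched promoters and in 35.7% of all 32851 promoters of the same length. The members' promoters had a median GC content of 68.3% and a median of 29 CpG, against 52.7% and 7 over all promoters. TATAAA (13.6% of all promoters), TGACGTCA (1.79%) and CACGTG (7.15%), searched on both strands, were in 0 of the 8, and none of the 4 motifs contains another. A match describes letters and not a bound site.

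All 10 genes were well measured. Each library held at least 1092 counts of every member, and per kilobase of exon the levels averaged over the 12 libraries ran between 7.27 and 78.5 CPM per kb (read counts relative to the library total, scaled by the trimmed mean of M-values and divided by exon length). Unc13a, which encodes the priming factor Munc13-1, was highest at 78.5 CPM per kb. It was followed by Ppfia3 (liprin-alpha-3) at 58.0, Bsn at 44.5 and Rims1 at 38.6 CPM per kb, and by Rimbp2 at 33.1 and Erc2 at 29.2. Rims2 stood at 17.5, Pclo at 14.0, Cask at 11.1 and Erc1 at 7.27 CPM per kb. Within a library this order held for every neighbouring pair in all 12 libraries, except that Rimbp2 was above Erc2 in 11. Over libraries, however, the ranges of neighbours overlapped for 6 of the 9 pairs, and did not for Erc2 and Rims2, Rims2 and Pclo, or Cask and Erc1.

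Totals ran between 16381221 and 20782195 counts. Grn, the deleted gene, averaged 12.8 ± 1.38 CPM in KO, 13.5 ± 1.59 CPM in MUT and 57.9 ± 1.35 CPM in WT (SD, n = 4 each). Excitatory cortical neuron markers were present in every library, with summed levels of 2102 to 2387 CPM in KO, 1963 to 2325 CPM in MUT and 2113 to 2545 CPM in WT. WT replicates 2, 3 and 4, the 375-day libraries, were high in striatal projection neuron markers, and KO replicate 3, MUT replicate 1 and WT replicate 4 were high in choroid plexus markers. Xist and Ddx3y contradicted the labelled sex in each of the 12 libraries, which leaves the sex term of the fit unchanged apart from its sign. In cortex RNA of this kind, fewer cells of a type and less RNA per cell cannot be told apart.

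**Figure D1:**
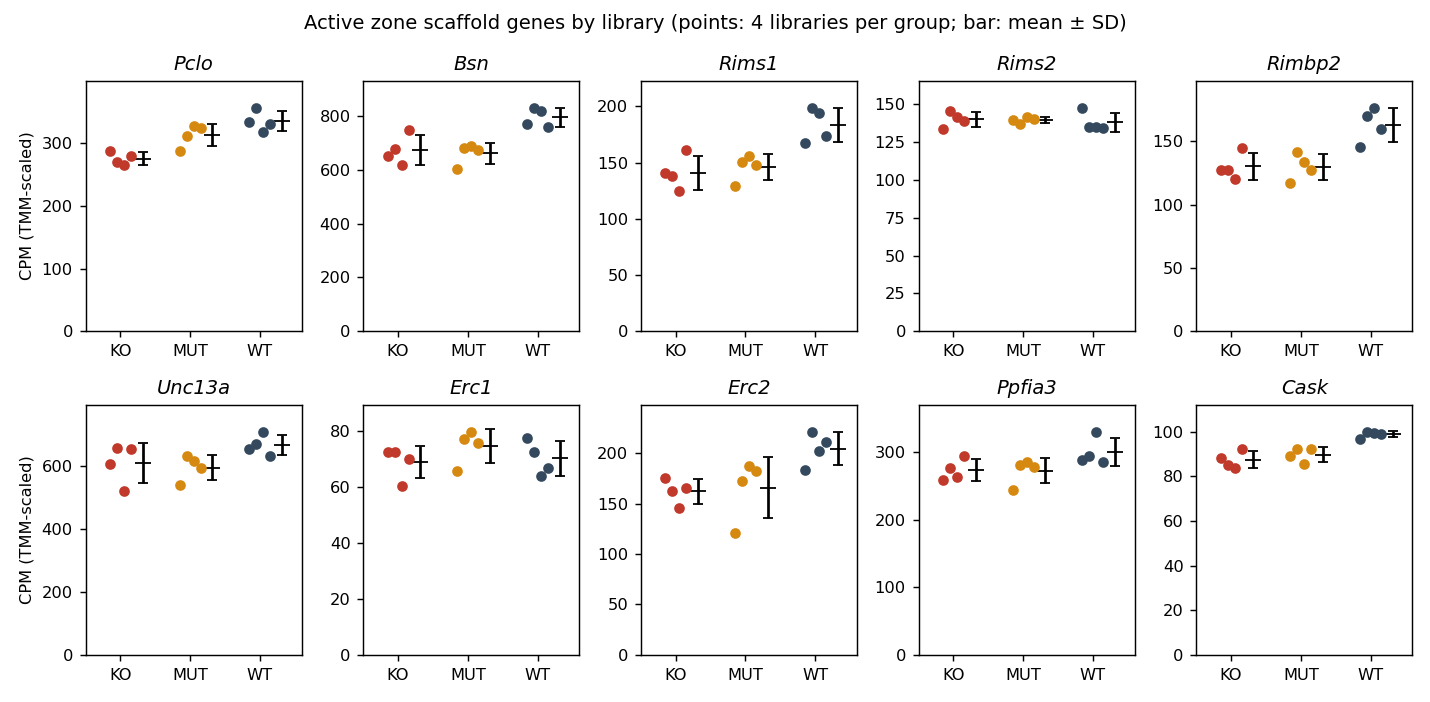
CPM of the 10 active zone scaffold genes, with 1 point per library in KO, MUT and WT (4 each) and the mean ± SD beside the points. The KO libraries of Pclo sit between 265 and 288 CPM, all below the WT libraries at 319 to 357 CPM, while the groups of Rims2 and Erc1 overlap.

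The comparison of KO with WT asks what accompanied loss of mouse Grn. Pclo, which encodes piccolo, fell by 17.1% in KO and was the only member past the threshold, 1 of 10, where 0.49% of all tested genes were called (edgeR quasi-likelihood test, adjusted p under 0.05). DESeq2 called 5 members lower, Pclo, Bsn, Rims1, Cask and Rimbp2, among 647 genes in all, 4.23% of those tested. Rims1, Rimbp2, Erc2, Bsn and Cask were lower in every KO library than in any WT library without passing, which with Pclo makes 6 of 10 members, against 4.82% of all genes. These same 6 had an unadjusted p under 0.05, against 17.6% of all genes. Rims2, Erc1, Unc13a and Ppfia3 overlapped between the groups. The median log2 fold change over the members was -0.21, and 9 of 10 were below 0, while the median over all genes was 0.00 with 48.7% below 0.

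In MUT against WT no member passed (edgeR, 0 of 10, where 0.0131% of all genes were called), and 4 had an unadjusted p under 0.05 against 10.9% of all genes. DESeq2 called Bsn, near the threshold (DESeq2 adjusted p = 0.0489), among 49 genes in all, 0.320% of those tested. Rims1, Rimbp2, Bsn, Cask and Unc13a lay below every WT library in all MUT libraries, 5 of 10 against 3.71% of all genes. The median over the members was -0.14, with 9 of 10 below 0. Both comparisons use the same WT libraries, so they are not independent of each other. For example, both draw on WT replicates 2, 3 and 4, which were older and high in striatal markers.

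MUT and KO, the groups that both lack mouse Grn, were set against each other directly. No member was called (edgeR, 0 of 10, where 0.00654% of all genes were called; 0 by DESeq2), and 1 member, Pclo, had an unadjusted p under 0.05, against 5.69% of all genes. Pclo was also the only member whose groups did not overlap, higher in MUT, where 3.37% of all genes were. The margin was narrow, with 288.6 CPM in MUT replicate 1 against 287.8 CPM in KO replicate 1. The log2 fold change of Pclo was 0.19 (SE 0.05, 95% interval 0.08 to 0.31, edgeR adjusted p = 0.716). The other 9 members had log2 fold changes of -0.02 to 0.12.

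**Figure D2:**
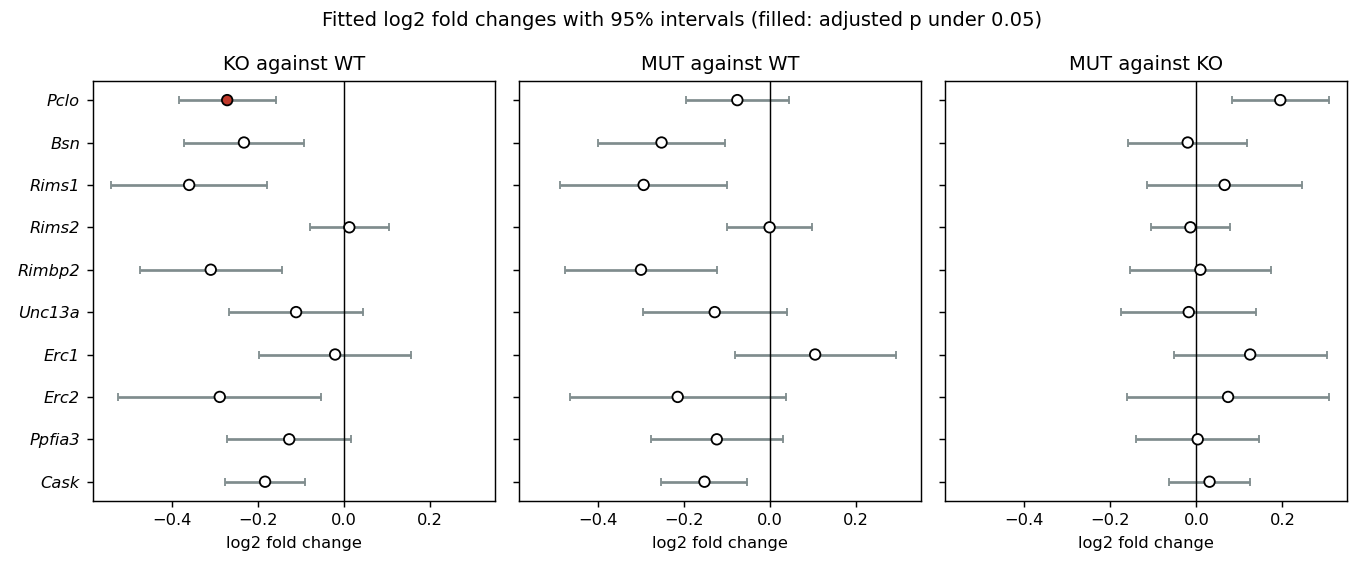
Fitted log2 fold change of each member (point) with its 95% interval (bar) for KO over WT (left), MUT over WT (middle) and MUT over KO (right). The filled point, Pclo at -0.27 in KO against WT, alone had an edgeR adjusted p under 0.05, and in MUT against KO the interval of Pclo lies above 0.

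Among the scaffolds that link vesicles to calcium channels, Rims1, which encodes RIM1, stood furthest from WT in KO. It measured 140.3, 138, 125 and 161 CPM in KO replicates 1 to 4, 129, 151, 156 and 148 CPM in MUT replicates 1 to 4, and 167, 199, 194 and 174 CPM in WT replicates 1 to 4. All 8 libraries of the Grn-null groups lay below the lowest WT library. On the log2 scale the fold change was -0.36 for KO (SE 0.08; edgeR adjusted p = 0.0759) and -0.29 for MUT (SE 0.09; edgeR adjusted p = 0.392). Rims2, its paralog RIM2, measured 134, 146, 141 and 139 CPM in KO, 139.6, 137, 142 and 140.1 CPM in MUT, and 148, 135, 135 and 135 CPM in WT. Its groups overlapped, with log2 fold changes of 0.01 in KO (95% interval -0.08 to 0.10) and 0.00 in MUT (95% interval -0.10 to 0.10). Rims2 was also the steadiest member, with a coefficient of variation of 3.15% over the 12 libraries, against 6.30% to 15.6% for the others.

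Rimbp2, the RIM-binding protein that bridges RIMs and calcium channels, had a pattern close to that of Rims1. It measured 128, 127, 121 and 145 CPM in KO, 117, 141, 134 and 127 CPM in MUT, and 146, 169.9, 176 and 159.9 CPM in WT. Every KO and MUT library was below every WT library, by a narrow margin between KO replicate 4 and WT replicate 1. The fitted log2 fold change was -0.31 for KO (SE 0.08; edgeR adjusted p = 0.0811) and -0.30 for MUT (SE 0.08; edgeR adjusted p = 0.360). WT replicate 1, the only WT library under 310 days and the only 1 labelled female, was the lowest WT library for Rims1 and Rimbp2. Without it both passed in KO, Rims1 at -0.40 (edgeR adjusted p = 0.0256) and Rimbp2 at -0.38 (edgeR adjusted p = 0.0136). Rimbp2 then also passed in MUT, at -0.38 (edgeR adjusted p = 0.0269). Calls rose over all genes in that setting, to 1619 of 15480 in KO and 1030 in MUT. With all libraries they were 75 in KO and 2 in MUT, so these passes are not particular to the members. Without KO replicate 4 Rims1 and Rimbp2 also passed in KO, at -0.44 (edgeR adjusted p = 0.0410) and -0.37 (edgeR adjusted p = 0.0425). There 0.581% of all genes were called.

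Of the giant scaffolds, Pclo measured 288, 270.4, 265 and 279 CPM in KO, 289, 311, 328 and 325 CPM in MUT, and 334, 357, 319 and 331 CPM in WT. KO was below WT without overlap, and MUT lay between them, above every KO library and partly within the WT range. The margin between MUT replicate 1 and KO replicate 1 was narrow. Pclo averaged 276 ± 9.95 CPM in KO, 313 ± 18.2 CPM in MUT and 335 ± 16 CPM in WT (SD, n = 4 each). The log2 fold change was -0.27 for KO (SE 0.05; edgeR adjusted p = 0.0441) and -0.08 for MUT (SE 0.06; edgeR adjusted p = 0.640). The call in KO lies near the threshold. It ended without WT replicate 2 or 4, without MUT replicate 2, 3 or 4, which share the fit, and without any of the 4 KO replicates, with log2 fold changes of -0.29 to -0.24 and edgeR adjusted p of 0.0525 to 0.247. In all, Pclo was called in 9 of 30 other settings and was below 0 in each of the 30, at -0.32 to -0.16.

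Bsn, which encodes bassoon, the structural relative of piccolo, measured 651, 677, 619 and 747 CPM in KO, 603, 682, 687 and 672 CPM in MUT, and 769, 829.9, 819 and 759.9 CPM in WT. Neither Grn-null group reached the lowest WT library, and KO and MUT overlapped with each other. On the log2 scale the fold change was -0.23 for KO (SE 0.06; edgeR adjusted p = 0.0990) and -0.25 for MUT (SE 0.07; edgeR adjusted p = 0.360). Bsn in KO passed without KO replicate 4, the highest KO library, at -0.29 (edgeR adjusted p = 0.0455), where 0.581% of all genes were called. Unc13a, which encodes the vesicle priming factor Munc13-1, measured 608, 659, 523 and 654 CPM in KO, 540.1, 631, 616 and 594 CPM in MUT, and 654, 672, 711 and 633 CPM in WT. MUT stayed just under WT and KO overlapped with it, with KO replicate 3 and MUT replicate 1 lowest. Its log2 fold change was -0.11 for KO (SE 0.07; edgeR adjusted p = 0.456) and -0.13 for MUT (SE 0.08; edgeR adjusted p = 0.570).

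The ELKS paralogs Erc1 and Erc2, scaffolds that bind RIMs, were unlike each other. Erc2, the brain form also called CAST, measured 176, 162, 146 and 165 CPM in KO, 121, 173, 187 and 182 CPM in MUT, and 184, 221, 202 and 211 CPM in WT. KO lay below WT, while in MUT 1 library, replicate 1, was far below the other 3 and replicate 3 was within the WT range. The log2 fold change was -0.29 for KO (SE 0.11; edgeR adjusted p = 0.198) and -0.21 for MUT (SE 0.11; edgeR adjusted p = 0.522). MUT replicate 1 is among the libraries high in choroid plexus markers. Without it Erc2 in KO was at -0.30 (edgeR adjusted p = 0.0419, where 0.467% of all genes were called) and in MUT at -0.12. Erc1, the more widely expressed form, measured 72.4, 72.5, 60.5 and 69.9 CPM in KO, 65.7, 77.0, 79.8 and 75.7 CPM in MUT, and 77.6, 72.5, 63.8 and 66.8 CPM in WT. The 3 groups overlapped, with a log2 fold change of -0.02 in KO (95% interval -0.20 to 0.16) and 0.10 in MUT (95% interval -0.08 to 0.29).

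Ppfia3, which encodes liprin-alpha-3, an organizer of active zone assembly, ran between 258 and 294 CPM in KO, 245 and 286 CPM in MUT, and 286 and 331 CPM in WT. The groups overlapped, and the log2 fold change was -0.13 for KO (SE 0.07; edgeR adjusted p = 0.348) and -0.12 for MUT (SE 0.07; edgeR adjusted p = 0.553). Cask, a membrane-associated guanylate kinase that binds neurexins, measured 88.3, 85.3, 84.0 and 92.5 CPM in KO, 89.2, 92.5, 85.4 and 92.1 CPM in MUT, and 97.0, 100.1, 99.4 and 99.0 CPM in WT. The WT libraries were tightly grouped (SD 1.35 CPM) and above all 8 libraries of the Grn-null groups. The fitted log2 fold change was -0.18 for KO (SE 0.04; edgeR adjusted p = 0.0759) and -0.15 for MUT (SE 0.05; edgeR adjusted p = 0.392). Without WT replicate 1 Cask passed in KO, at -0.21 (edgeR adjusted p = 0.0194). There 1619 of 15480 genes were called, against 75 of 15298 with all libraries.

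Paralogs were then set against each other within each library, which cancels the scaling between libraries. These tests take no account of sex or age. Pclo over Bsn counts, as a log2 ratio, averaged -1.29 ± 0.11 in KO, -1.08 ± 0.04 in MUT and -1.25 ± 0.08 in WT (SD, n = 4 each). MUT did not overlap with either other group, so relative to Bsn there was more Pclo in MUT than in KO (difference 0.21) and in MUT than in WT (difference 0.17). Each of the 2 differences had p = 0.0286 in a two-sided exact permutation test, the smallest p that 4 libraries against 4 can give, and an adjusted p of 0.0857 over the 9 ratio comparisons. KO and WT overlapped in this ratio (difference -0.04, two-sided exact permutation p = 0.629).

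The log2 ratio of Rims1 to Rims2 was 0.07, -0.08, -0.18 and 0.21 in KO, -0.11, 0.14, 0.14 and 0.07 in MUT, and 0.18, 0.56, 0.52 and 0.37 in WT. All MUT libraries and 3 of the 4 KO libraries lay below the WT libraries. The difference was -0.40 for KO against WT (two-sided exact permutation p = 0.0571, adjusted p = 0.103) and -0.35 for MUT against WT (p = 0.0286, exact, adjusted p = 0.0857). Erc1 over Erc2, on the same scale, was -1.28, -1.16, -1.27 and -1.24 in KO, -0.88, -1.16, -1.23 and -1.27 in MUT, and -1.24, -1.61, -1.66 and -1.66 in WT. WT replicate 1 stood among the Grn-null libraries, and the other 3 WT libraries were below all of them. The difference was 0.31 for KO against WT (two-sided exact permutation p = 0.0857, adjusted p = 0.129) and 0.41 for MUT against WT (p = 0.0571, exact, adjusted p = 0.103). Without WT replicate 1 the groups no longer overlapped, with differences in KO of -0.48 for Rims1 to Rims2 and 0.41 for Erc1 to Erc2 (p = 0.0286 each, exact). Between MUT and KO neither ratio differed beyond its spread, with differences of 0.06 (exact p = 0.6) and 0.10 (exact p = 0.286).

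**Figure D3:**
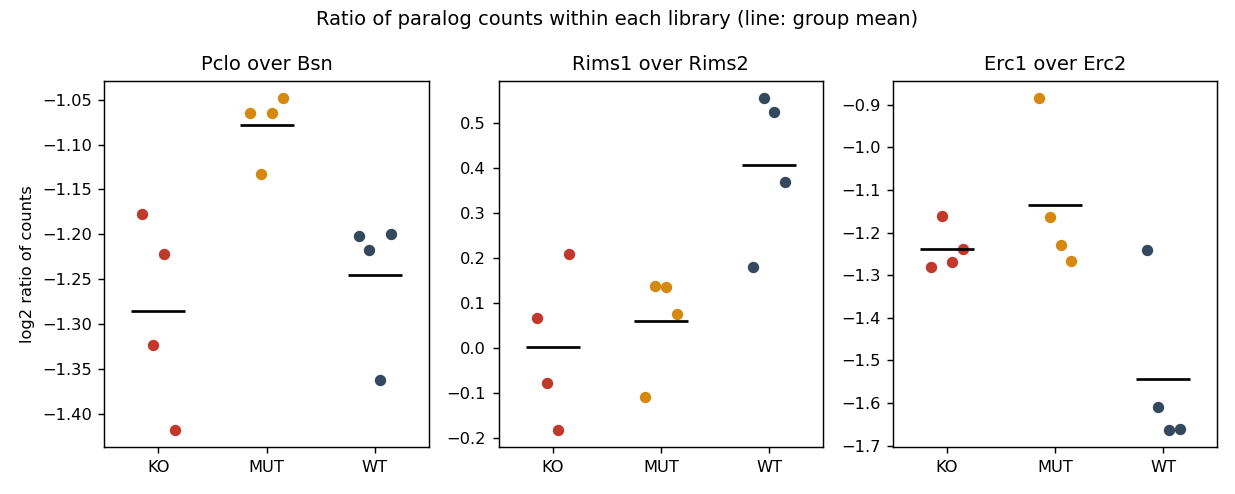
Log2 ratio of the counts of 2 paralogs within a library, with 1 point per library and a line at the group mean. The 4 MUT libraries lie above all KO and WT libraries for Pclo over Bsn, and WT replicate 1 lies apart from the other WT libraries for Erc1 over Erc2.

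Because the members are long, their fold changes were set beside those of genes of like exon length (up to 25% longer, or shorter by the same ratio). In KO against WT the median log2 fold change fell across deciles of exon length, at 0.08 in the shortest decile and -0.07 in the longest, where 21 genes were called lower and 0 higher. Pclo was 0.24 below the median of its 15 neighbours in length, the smallest such set, at -0.27 against -0.03. Rims1, at 4066 bases among the shorter members, was at -0.36 against -0.02 for 3822 genes, and Rimbp2 at -0.31 against -0.02 for 3666 genes. Erc2 was at -0.29 against -0.05 for 2112 genes and Bsn at -0.23 against -0.04 for 93 genes. Cask (-0.18), Ppfia3 (-0.13) and Unc13a (-0.11) were closer to their own sets, with medians of -0.08, -0.03 and -0.08. Rims2 and Erc1 were above theirs, each with a median of -0.08. Of the genes of like length, 6.31% lay below Rims1, 8.13% below Rimbp2, 9.61% below Erc2, 13.3% below Pclo and 18.3% below Bsn. Rims1 spans 517 kb of the genome and Rimbp2 193 kb. Beside genes of like genomic span, the medians were -0.12 for Rims1, -0.07 for Rimbp2, -0.16 for Erc2, -0.09 for Pclo and -0.05 for Bsn. In these sets, in the same order, 15.8%, 16.7%, 16.4%, 20.8% and 15.2% of genes lay below the member.

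Removing a smooth trend on exon length from each library left 8 of 10 members below 0 in KO, with Rims1 at -0.32, Rimbp2 at -0.27, Erc2 at -0.23, Pclo at -0.21 and Bsn at -0.16. No member was then called (edgeR, 0 of 10, with 15 genes called in all; 3 members had an unadjusted p under 0.05, against 13.7% of all genes), and Pclo had an adjusted p of 0.192. In MUT against WT the trend on length was smaller, at 0.03 in the shortest decile and -0.01 in the longest. Bsn, at -0.25, was 0.31 below its set there, Rimbp2 0.29, Rims1 0.28, Erc2 0.19 and Pclo 0.17. With sets of like genomic span, member minus median in MUT was -0.24 for Bsn, -0.26 for Rimbp2, -0.24 for Rims1, -0.18 for Erc2 and -0.04 for Pclo. In MUT against KO the longest decile had a median of 0.06 and the 15 genes of like length to Pclo a median of 0.11, beside 0.19 for Pclo. The median level over genes of the longest decile, as log2 CPM centred over the libraries, was -0.08 to -0.02 in KO, 0.02 to 0.03 in MUT and -0.07 to 0.06 in WT.

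**Figure D4:**
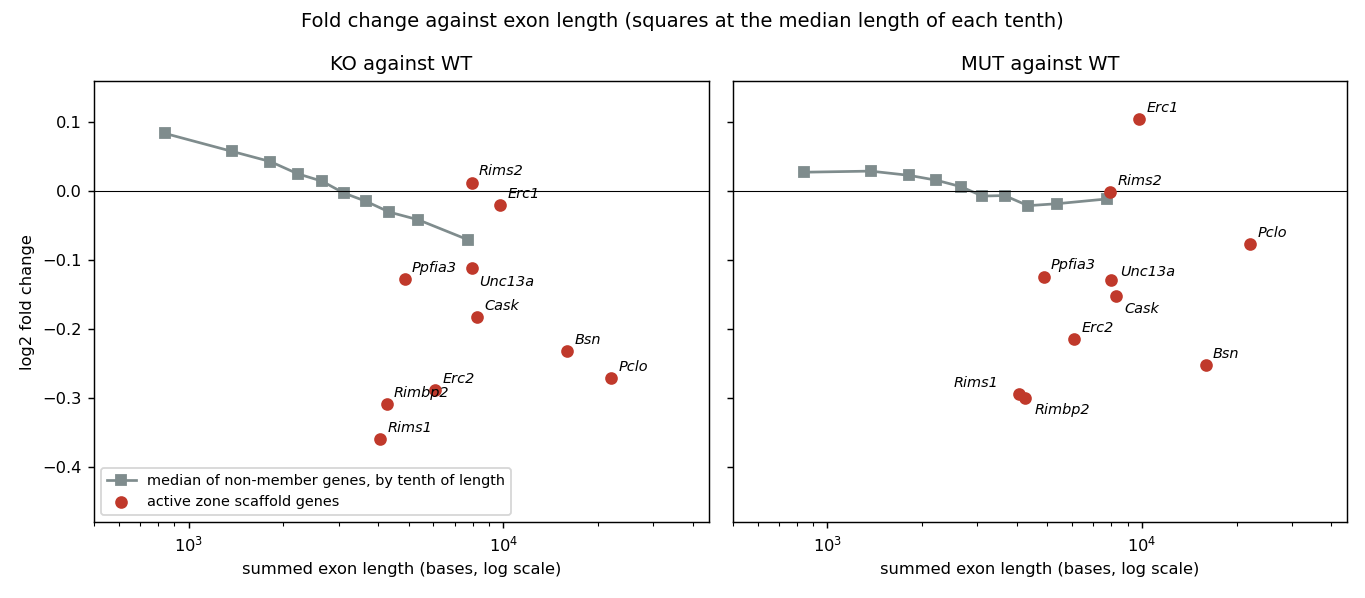
Log2 fold change against summed exon length (log scale) for the 10 members (red) and the median of all other tested genes by decile of length (grey), in KO against WT and MUT against WT. The grey line ends at 7749 bases, the median length of the longest decile, and the members of that decile lie past its end. Rims2 and Erc1 lie above the median of their decile in both panels, and all other members lie below theirs.

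Across libraries most members varied together. The mean centred log2 level of the 10 members was -0.19 to 0.01 in KO, -0.19 to 0.02 in MUT and 0.09 to 0.17 in WT, so the WT libraries lay above all others. KO replicate 3 and MUT replicate 1, high in choroid plexus markers, had the lowest levels. WT replicate 4, also high in them, was the lowest WT library at 0.086, close to WT replicate 1 at 0.088. Over the 12 libraries Pearson's r between members ran between -0.44 and 0.97 over 45 pairs, with a median of 0.66. Bsn and Rims1 (r = 0.97), Rims1 and Rimbp2 (0.97) and Bsn and Rimbp2 (0.96) were most alike, and 9 pairs were below 0, of which 8 involved Rims2 and the other joined Erc1 and Rimbp2. These r values describe 12 libraries that also share the group differences and any difference in cell makeup. The genes outside the list whose levels followed the members' mean most closely over the 12 libraries were Zdhhc2, a palmitoyltransferase (r = 0.95), Srr, serine racemase (0.94), Sv2b, a synaptic vesicle glycoprotein (0.94), Zfr (0.94) and Oxr1 (0.94).

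**Figure D5:**
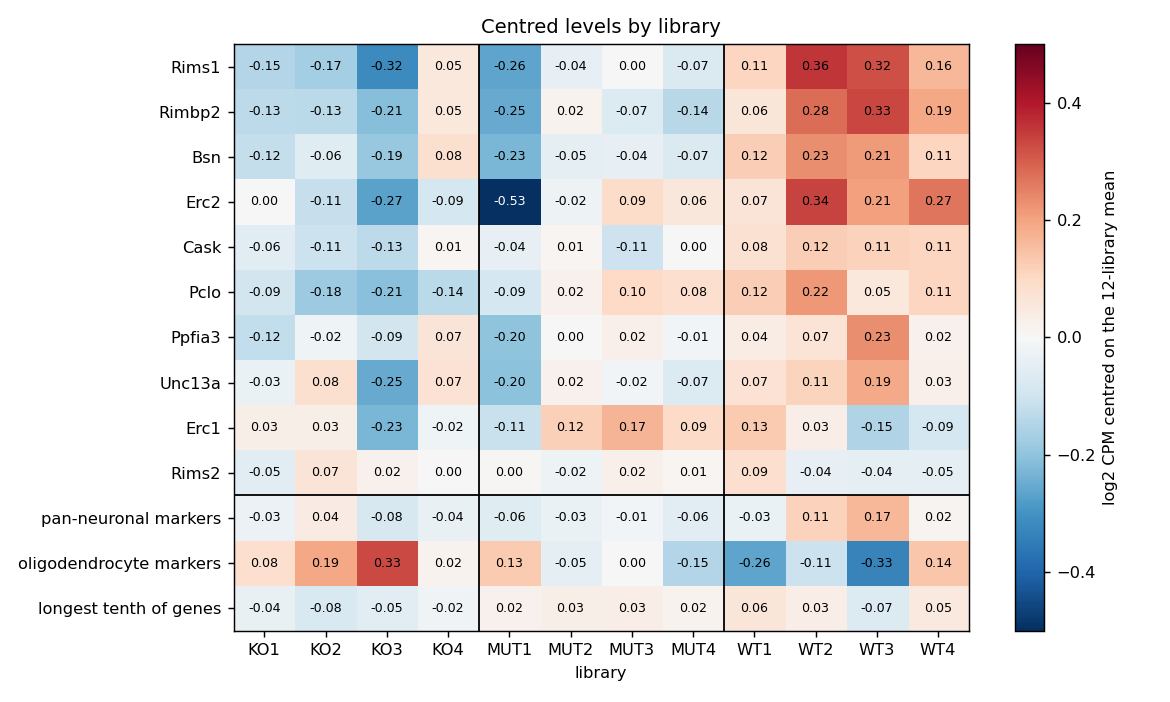
Log2 CPM of each member, mean levels of 2 marker lists and the median level of the longest decile of genes, centred on the mean of the 12 libraries (columns, KO, MUT, WT), with blue below and red above that mean. Every member but Rims2 and Erc1 is above that mean in all WT columns, by as little as 0.02 for Ppfia3 in WT replicate 4.

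Markers of cell types were read in the same fits. Pan-neuronal markers were below 0 in KO against WT for 9 of 10 genes, with a median of -0.09 and none called (edgeR, 0 of 10; 3 at an unadjusted p under 0.05, against 17.6% of all genes). Their summed level was 8533 to 9150 CPM in KO, 8730 to 8826 CPM in MUT and 8866 to 10133 CPM in WT. Oligodendrocyte markers were above 0 in KO for all 10 genes, with a median of 0.29, and their sums were 4522 to 5412 CPM in KO, 3925 to 4677 CPM in MUT and 3275 to 4614 CPM in WT. Excitatory (-0.05), inhibitory (-0.09) and astrocyte (-0.05) markers had medians below 0 in KO, microglia markers a median of 0.10, striatal projection neuron markers -1.33 and choroid plexus markers -0.37. In these lists 6 of 10 excitatory, 7 of 10 inhibitory, 8 of 10 astrocyte, 2 of 10 microglia, 11 of 11 striatal and 5 of 7 choroid plexus genes were below 0. At an unadjusted edgeR p under 0.05 in KO were 8 of 10 oligodendrocyte and 10 of 11 striatal genes, against 17.6% of all genes. So were 1 excitatory, 1 inhibitory, 4 astrocyte, 5 microglia and 0 choroid plexus genes. Among all markers only C1qa, a complement gene of microglia, was called, at 0.29 in KO (edgeR adjusted p = 0.0498). The part of any of these lists in the members' values was not tested beyond the fits with a marker level as a term. With the pan-neuronal level as a term in the fit, Pclo was at -0.29, Rims1 at -0.25, Rimbp2 at -0.20 and Bsn at -0.16 in KO, none of them called. With the oligodendrocyte level as a term they were at -0.23, -0.21, -0.21 and -0.12, none called, and Unc13a turned to 0.04. In animals under 310 days, where WT replicate 1 is the only WT library, Pclo was at -0.31, Erc2 at -0.27, Rims1 at -0.26 and Erc1 at -0.25 in KO. All 10 members were below 0 there, in KO and in MUT. These values rest on that single WT library, whose spread is assumed to be that of the other groups. With sex and age as terms over all 12 libraries, all 10 were again below 0 in both comparisons and none was called. In that fit 2 members in KO and 1 in MUT had an unadjusted edgeR p under 0.05, against 8.61% and 5.52% of all genes. Age, labelled sex, striatal markers and genotype cannot be told apart fully in these libraries.

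The other genes of the presynaptic machinery were counted in the same fits, in lists chosen with earlier results of these data known. Of 10 genes for presynaptic calcium channels and their subunits, the partners of RIM and RIM-binding proteins, none was called in KO (edgeR, 0 of 10; 4 at an unadjusted p under 0.05, against 17.6% of all genes; lowest adjusted p = 0.0623). All 10 were below 0 with a median of -0.22, and 5 lay below WT in every KO library, against 4.82% of all genes. Those 5, named after their values were seen, were Cacna2d1 (-0.28), Cacnb4 (-0.25), Cacna1a (-0.23), Cacna1b (-0.22) and Cacnb1 (-0.12). In MUT the median of this list was -0.13, and Cacna1a, the pore of P/Q-type channels, was the only gene apart from WT (-0.22, edgeR adjusted p = 0.392).

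Paralogs of the members (Rims3, Rims4, Unc13b, Unc13c, Ppfia1, Ppfia2, Ppfia4 and Tspoap1) had a median of -0.06 in KO and 0.03 in MUT, with none called and none below WT in every library (edgeR, 0 of 8; 1 in KO and 2 in MUT at an unadjusted p under 0.05, where 17.6% and 10.9% of all genes were; these shares also apply to the next 2 lists). Genes for presynaptic adhesion (neurexins and LAR-type phosphatases) had a median of -0.09 in both comparisons, with 0 of 6 called (edgeR; 3 in each at an unadjusted p under 0.05). Among them Ptprf, named after its values were seen, was at -0.23 in KO and -0.35 in MUT (edgeR adjusted p = 0.0725 and 0.101). Postsynaptic scaffolds, on the other side of the synapse, also had a median of -0.09 in both, with 15 of 16 below 0 in KO and 14 of 16 in MUT and none called (edgeR; 4 in KO and 2 in MUT at an unadjusted p under 0.05).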

How the data were processed

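RNA from mouse cortex was made into strand-preserving libraries, per the labels' protocols. The deposited table holds the authors' raw counts of each library over the exons of every gene, beside Entrez IDs, coordinates and summed exon length, per the file headers, in the layout of featureCounts. Listed in the submitters' processing notes are mm10, R 4.1.2 and DESeq2 1.34.0. Neither they nor the labels give the aligner, the counting tool or its strand option. Reads of antisense or overlapping genes, and reads shared by paralogs, are therefore uncertain.

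Library columns were matched to samples by name, and groups, sex and age came from the labels. A filter on low counts by group (filterByExpr in edgeR 4.0.16, R 4.3.3, minimum count 10, minimum total 15) left 15298 genes. After TMM scaling, all 12 libraries entered 1 robust quasi-likelihood model with terms for group and labelled sex (8 residual degrees of freedom, biological coefficient of variation 0.101). P values were Benjamini-Hochberg adjusted over all tested genes, with a threshold of 0.05. CPM use TMM-scaled totals. Age was not a term, since only WT libraries, 3 of the 4, were 375 days old. Paralog ratios were compared by two-sided exact permutation tests, adjusted over 9, with no term for sex or age. No 2 libraries agreed within sampling noise (chi-square per degree of freedom of at least 3.55 in the 66 pairs). Alternatives covered normalization, filters, DESeq2 1.42.0, limma-voom (limma 3.58.1), covariates, restriction to some libraries and leaving out each 1 in turn; the trend on genomic span and the pan-neuronal, choroid plexus and oligodendrocyte terms were added after seeing the data. The members, the lists and the naming rule were chosen with earlier results of these data known. That rule names all members, up to 4 called genes of each list, Grn, and the 5 genes most alike to the members' mean; genes outside it are marked as named after their values were seen, apart from Xist and Ddx3y, used to check the labels. The list of binding partners is not reported here. Promoter sequences are from RefSeq.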

Additional observations from a re-analysis of the deposited data

Results flagged for a closer look

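Within 39 groups of 4 libraries, each holding the CPM of a member or a paralog ratio, 3 had a library far from the other 3 relative to the spread of the group, where chance gives about 1 in 20. All 3 lay in WT. Rims2 measured 148 CPM in WT replicate 1, against 134.7 to 135.2 CPM in the other WT libraries. The log2 ratio of Erc1 to Erc2 was -1.24 in WT replicate 1, against -1.66 to -1.61 in the others, and WT replicate 1 was also the youngest WT library. The log2 ratio of Pclo to Bsn was -1.36 in WT replicate 3, against -1.22 to -1.20 in the others.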

How the results depend on the processing

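The median over the members stayed below 0 in all 30 other settings, at -0.24 to -0.13 in KO and -0.17 to -0.10 in MUT. Pclo, Bsn, Rims1, Erc2, Ppfia3, Cask and Rimbp2 were below 0 in each of them in both comparisons with WT. Only WT replicate 1 is close in age to the Grn-null animals, and it is the only WT library labelled female, which limits every comparison with WT.

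In KO against WT, 75 genes and 1 member were called as reported. The counts were 647 genes and 5 members with DESeq2, 294 and 4 without the sex term, and 315 and 5 with the choroid plexus level. No member (0) was called with library size alone, limma-voom, sex and age (2 genes), only the groups compared (3), animals under 310 days (11), without the libraries high in choroid plexus markers (2), with the striatal (1), pan-neuronal (12) or oligodendrocyte (172) level, or with the length (15) or span (6) trend removed. Leaving out each library gave 1 to 1619 genes and 0 to 4 members, with 1619 genes without WT replicate 1, 170 without WT replicate 3, 11 without MUT replicate 2, 5 or fewer without WT replicates 2 and 4, MUT replicates 3 and 4 and KO replicates 1, 2 and 3. In MUT against WT the 2 genes and 0 members became 49 and 1 with DESeq2, 6 genes without the sex term, 3 genes with sex and age, under 310 days or without the choroid plexus libraries, and 2 to 1030 genes (1030 without WT replicate 1) and 0 to 1 members with each library left out. In MUT against KO, 1 gene became 15 with DESeq2, 2 with sex and age, 39 with only the groups compared, 37 under 310 days and 1 to 18 with each library left out (18 without WT replicate 3, 5 without WT replicate 1, 2 without KO replicate 2).

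The replicate numbers were not treated as pairs in the reported fit. Deviations of same-numbered libraries correlated at -0.38 to 0.29 over 12 pairs, and 1 pair was over 0.1. MUT replicate 1 and KO replicate 3, both high in choroid plexus markers, correlated at 0.53. Such correlations also carry differences in tissue, so they cannot exclude a preparation shared by number. With the replicate block 2 genes and 0 members were called in KO, and the paralog ratios that had p = 0.0286 had p = 0.125, exact and the smallest that 4 pairs can give.

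The log2 fold changes and ratios below, between -0.11 and 0.10 as reported, changed sign in some settings, and the cause was not tested. Erc1 in KO against WT, -0.020 as reported, was 0.0060 with library size alone, 0.0080 without the choroid plexus libraries, 0.056 without the length trend, 0.086 without the span trend, 0.092 with the oligodendrocyte level and -0.062 to 0.095 with each library left out. Rims2 in KO against WT, 0.013 as reported, was -0.097 with sex and age, -0.081 under 310 days, -0.028 with the striatal level and -0.022 to 0.060 with each library left out. Unc13a in KO against WT, -0.11 as reported, was 0.043 with the oligodendrocyte level. Rims2 in MUT against WT, -0.0013 as reported, was 0.024 with library size alone, 0.0025 with no filter, 0.015 without the sex term, 0.0094 without the length trend, 0.038 without the span trend, 0.00043 with the oligodendrocyte level and -0.036 to 0.056 with each library left out. Erc1 in MUT against WT, 0.10 as reported, was -0.10 with sex and age, -0.096 under 310 days and -0.044 with the striatal level. Ppfia3 in MUT against KO, 0.0031 as reported, was -0.0026 without the sex term, -0.0057 with the replicate block, -0.0029 with only the groups compared, -0.0018 under 310 days, -0.026 without the length trend, -0.0024 without the span trend, -0.0012 with the pan-neuronal level, -0.0053 with the choroid plexus level, -0.061 with the oligodendrocyte level and -0.028 to 0.061 with each library left out. Rimbp2 in MUT against KO, 0.0093 as reported, was -0.0037 without the sex term, -0.0092 with sex and age, -0.0076 with only the groups compared, -0.0065 under 310 days, -0.014 without the length trend, -0.050 without the span trend, -0.044 with the oligodendrocyte level and -0.037 to 0.10 with each library left out. Rims2 in MUT against KO, -0.014 as reported, was 0.0049 with sex and age and -0.043 to 0.0097 with each library left out. Cask in MUT against KO, 0.031 as reported, was -0.032 without the length trend, -0.043 without the span trend and -0.0031 to 0.063 with each library left out. Rims1 in MUT against KO, 0.066 as reported, was -0.021 without the span trend and -0.012 with the oligodendrocyte level. Erc2 in MUT against KO, 0.074 as reported, was -0.027 without the span trend. Bsn in MUT against KO, -0.020 as reported, was -0.068 to 0.061 with each library left out. Unc13a in MUT against KO, -0.018 as reported, was -0.097 to 0.052 with each library left out. The log2 ratio of Pclo to Bsn in KO against WT, -0.040 as reported, was -0.079 to 0.0044 with each library left out. The log2 ratio of Rims1 to Rims2 in MUT against KO, 0.056 as reported, was -0.0057 to 0.12 with each library left out.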
